A study of Rattus norvegicus with 4 samples.

Results

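The genes described here are 10 genes of the NF-κB pathway. They are the subunit genes Nfkb1, Nfkb2 and Rela, the inhibitor genes Nfkbia, Nfkbib, Nfkbie and Bcl3, the kinase gene Ikbkb, and the target genes Tnfaip2 and Icam1. They were chosen by name, and the names were listed with earlier results of these data known. Every gene probe on the array whose accession belongs to one of these rat symbols was taken, whatever its signal. This gave 12 of 45598 gene probes and 10 of 16581 named genes. Expression was measured in NR8383 cells, an established line of rat alveolar macrophages that grows partly attached and partly afloat. Titanium dioxide of the type NM105 (P25, a mixture of anatase and rutile) was given to 4 cultures for 4 h, at a dose that the labels give as 3 cm2/cm2, after 20 passages in medium with 15% serum. These 4 cultures form 1 group, replicates 1 to 4, and the series' design calls them biological replicates. The study's question was the response to the particles, but the cultures without particles were not analysed here, so nothing below measures a response to them. All results concern 1 cell line, and no animal tissue was measured.

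NF-κB is a family of transcription factors that act as pairs of subunits. In a resting macrophage the pairs are held in the cytoplasm by IκB proteins. Signals from Toll-like receptors, interleukin-1 or TNF activate the IκB kinase complex, which marks IκB for destruction and lets the subunits enter the nucleus. Several genes they switch on encode parts of the pathway itself, among them Nfkbia and Nfkb2, so that the response limits or renews itself. This control acts largely on proteins, which the arrays do not measure.

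A short upstream stretch is shown for the genes whose promoter holds the NF-κB consensus, the sequence the subunits bind, because the levels of some of these genes are compared across the arrays below. The 250 bases before the start in RefSeq's annotation of GRCr8 were searched on both strands for the 10-base NF-κB consensus, and 9 of the 10 genes had an entry in that table. The consensus was found for 4 of these 9 genes, and in 3.54% of all 33469 promoters of the same length. The genes were chosen by name as pathway genes, so their count is a description and no test against that share. A match is a description of the letters, not evidence that a factor is bound. Each stretch reads 5′ to 3′ on the strand of its gene, with the matched bases in capitals.
Nfkb2: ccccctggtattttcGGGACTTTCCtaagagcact
Nfkbia: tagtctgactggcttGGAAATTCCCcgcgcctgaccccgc
Bcl3: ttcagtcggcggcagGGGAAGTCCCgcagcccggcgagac
Nfkbie: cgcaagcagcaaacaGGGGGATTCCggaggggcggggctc
The Nfkb2 stretch is chr1:255108339-255108373 on the plus strand, with the match from 20 to 11 bases before the start. The Nfkbia stretch is chr6:78597079-78597118 on the minus strand, with the match from 31 to 22 bases before the start. The Bcl3 stretch is chr1:88613569-88613608 on the minus strand, and its match lies from 38 to 29 bases before the start. The Nfkbie stretch is chr9:22948012-22948051 on the minus strand, and its match lies from 164 to 155 bases before the start. In Nfkbia and Bcl3 the consensus reads on the strand opposite to the gene. The windows of Nfkb1, Rela, Nfkbib, Tnfaip2 and Icam1 do not hold the consensus. Sites with other letters, or farther from the start than 250 bases, were not searched for, so these genes may still have them.

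Each culture has 1 array, scanned for Cy3, and the arrays share 1 slide. A level below is the log2 signal of a probe minus the array's own reference, the 75th percentile of those probes that every array detected. In intensity units that reference was 1431, 585, 767 and 831 for replicates 1 to 4, so replicate 1 was the brightest array and replicate 2 the dimmest. Levels place 1 gene on different arrays. They do not order the genes, because every probe has its own brightness. Macrophage genes such as Cd68, Csf1r and Spi1 were detected throughout, 10 of 12 in all, whereas Adgre1 and Mertk were never well above background. Of 32 measured markers of epithelium, fibroblasts, endothelium, T cells, B cells and neutrophils, 6 passed on all 4 arrays. These 6 were Pecam1, Cdh5, Vwf, Cd4, Pax5 and Camp, and the part of such transcripts in the values below was not tested.

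All 10 NF-κB genes gave signal well above background on all 4 arrays, against 35.2% of all named genes. The scanner software makes this call for each spot. Because the 10 were listed with earlier results known, their full count is a description and no test against that share. Of 56 other measured genes on the pathway lists, 35 passed the call on all 4 arrays. Among the brightest probes of the 10 genes the weakest, that of Nfkb1 on replicate 2, was at 5.65 times the 99th percentile of the negative controls, and the strongest, that of Nfkbia on replicate 1, at 403 times. Each probe of these genes was printed at 1 spot. No test between arrays could therefore be run on them, since that test needs repeated spots, and their spread is described with no p-value. The error that the scanner software attaches to a spot's signal ran from 10.0% to 16.9% for the probe used for each gene's level. The SD of a gene over the 4 arrays had a median of 0.26 over the 10 genes on the log2 scale, against 0.23 over all 5824 genes detected on all 4 arrays. The labels do not say what separates the cultures, so this spread takes culture, extraction, labelling and hybridisation together.

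**Figure D1:**
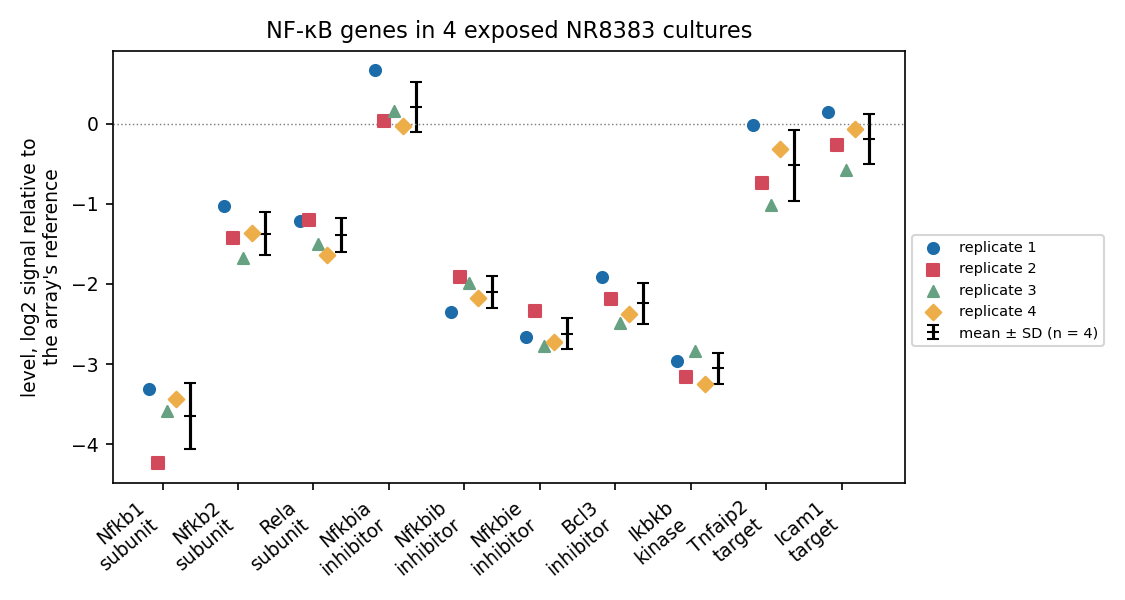
Level of each NF-κB gene (log2 signal relative to the array's reference, vertical axis) by gene and role (horizontal axis). Coloured marks are the 4 arrays, and the black bar is the mean with 1 SD (n = 4). Nfkb1 is lowest on replicate 2, Nfkbia is highest on replicate 1, and Tnfaip2 has the widest SD, 0.44.

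The subunit genes came first. Nfkb1 encodes p105, the precursor from which the p50 subunit is made. Its detected probe was at a level of −3.31, −4.24, −3.58 and −3.44 on replicates 1 to 4, or −3.64 ± 0.41 (SD, n = 4). Replicate 2 stood below the other 3, and the highest array was 1.90 times the lowest. On replicate 2 the spot held 31.0 ± 5.2 intensity units (the software's error), the weakest signal among the probes used for the levels, while replicate 1 gave 144, replicate 3 gave 64.0 and replicate 4 gave 76.6. The SD was 0.14 without replicate 2. It was 0.081 after normexp background correction with an offset of 50, under which replicate 1 was the lowest array and replicate 4 the highest. That offset is added to every spot, so it narrows the log2 differences of dim probes by construction, here and for the genes below. A second probe for the same Nfkb1 accession was well above background on replicate 1 only, at 19.6 ± 4.4 units (the software's error), and gave 3.90, 4.27 and 13.7 units on replicates 2 to 4.

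Nfkb2 encodes p100, the precursor of the p52 subunit that serves the alternative branch of the pathway. Its level was −1.03, −1.43, −1.68 and −1.36 on replicates 1 to 4, with a mean of −1.38 ± 0.27 (SD, n = 4). It was highest on replicate 1 and lowest on replicate 3, a ratio of 1.57. Rela encodes p65, the subunit that carries the activating domain of the classical pair. Its level was −1.22, −1.21, −1.50 and −1.64 on replicates 1 to 4, or −1.39 ± 0.21, and the highest array was 1.35 times the lowest. Rela was thus nearly equal on replicates 1 and 2 and lower on replicates 3 and 4, an order that neither Nfkb1 nor Nfkb2 had. The other subunit genes, Rel and Relb, had no probe named here.

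Among the inhibitor genes, Nfkbia stood highest on replicate 1, by a margin that changed with the scanner software's correction of 1 spot. It encodes IκBα, the inhibitor that is degraded first and made again quickly under NF-κB's own control. Its level was 0.66 on replicate 1 and 0.03, 0.16 and −0.02 on replicates 2 to 4, with a mean of 0.21 ± 0.31 (SD, n = 4), so that replicate 1 stood above the other 3 and was 1.61 times the lowest. Before depositing the values, the software had corrected each spot for trends across the array. At the Nfkbia spot this correction multiplied the background-subtracted signal by 1.46 on replicate 1, and by 1.02, 1.09 and 1.01 on replicates 2 to 4. The factor on replicate 1 was above that of 96.7% of the 24220 detected gene spots of the array and was the largest among the 10 genes. Taken from the signal before this correction, the Nfkbia level was 0.12, −0.00055, 0.044 and −0.016 on replicates 1 to 4, a ratio of 1.101 between the highest and the lowest array. The SD was then 0.062, lower than in all but 2.20% of detected genes, where it had been higher than in 73.9% of them. It was 0.093 without replicate 1 and 0.070 after normexp correction, which also starts from signal not yet corrected for trends. Replicate 1 remained the highest array before the correction, by a smaller margin, and which of the values is nearer to the amount of RNA was not tested.

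Nfkbib encodes IκBβ, a second inhibitor of the classical pairs. Its level was −2.36, −1.91, −1.98 and −2.18 on replicates 1 to 4, or −2.11 ± 0.20 (SD, n = 4), and it was the only one of the 10 genes with its lowest value on replicate 1. Nfkbie encodes IκBε, and was at −2.67, −2.34, −2.77 and −2.72, or −2.62 ± 0.19. Here replicate 2 was above the other 3, and without it the SD was 0.058. The reference table lists Slc35b2, a neighbouring gene with an entry of its own, as a synonym of Nfkbie, and the probe is given as Nfkbie on the strength of its accession. Bcl3 encodes an IκB-like protein that works in the nucleus with p50 and p52. It was at −1.91, −2.19, −2.49 and −2.38 on replicates 1 to 4, or −2.24 ± 0.25, highest on replicate 1 and lowest on replicate 3 with a ratio of 1.49. Its SD was 0.12 after normexp correction. A second Bcl3 probe never rose well above background, with 3.45 to 8.49 intensity units, so its detection rests on the first probe. The related genes Nfkbid and Nfkbiz had no probe named here.

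The kinase gene Ikbkb encodes IKKβ, the catalytic subunit that phosphorylates the IκB proteins in the classical branch. Its level was −2.96, −3.16, −2.84 and −3.25 on replicates 1 to 4, or −3.05 ± 0.19 (SD, n = 4). This was the lowest SD of the 10 genes, and the highest array was 1.33 times the lowest. Ikbkb alone was highest on replicate 3. The software's correction lowered its spot on all arrays, by factors from 0.81 to 0.92, and before it the SD was 0.24.

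Tnfaip2 and Icam1, the target genes among the 10, shared an order of the arrays. Tnfaip2 is a gene first known for its induction by TNF, and Icam1 encodes an adhesion molecule of the cell surface that binds leukocyte integrins. Tnfaip2 was at −0.02, −0.74, −1.01 and −0.32 on replicates 1 to 4, with a mean of −0.52 ± 0.44 (SD, n = 4). Icam1 was at 0.14, −0.27, −0.58 and −0.07 on the same arrays, with a mean of −0.19 ± 0.31. From the highest to the lowest array, both genes ran through replicates 1, 4, 2 and 3. The highest array was 1.999 times the lowest for Tnfaip2 and 1.65 times for Icam1. Tnfaip2 had the highest SD of the 10 genes, above that of 91.2% of the detected genes, and Icam1's SD was above that of 72.8% of them. Before the software's correction the ratio of highest to lowest was 2.07 for Tnfaip2 and 1.73 for Icam1, and the order of the arrays was the same.

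**Figure D2:**
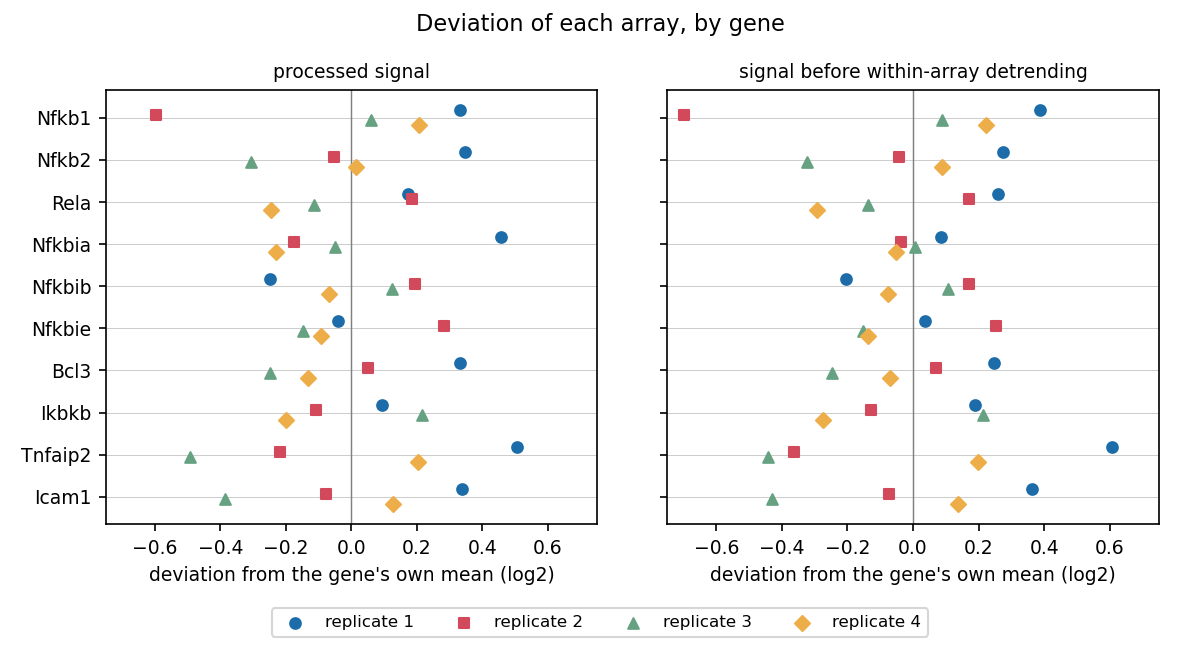
Deviation of each array from the gene's own mean (log2, horizontal axis) for the 10 NF-κB genes (vertical axis), with the processed signal on the left and the signal before within-array detrending on the right; each mark is 1 array. The replicate 1 mark of Nfkbia moves from 0.46 to 0.085, while Tnfaip2 and Icam1 keep their order of arrays.

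The order seen in Tnfaip2 and Icam1 was shared by Nfkb2, making 3 of the 10 genes, and 5.12% of all detected genes had it. The order was read from Tnfaip2, so the 3 include the gene that set it. Their count was therefore not tested against that share, and the settings below use the same 4 arrays. It was the same 3 genes under each of the other scalings, under normexp correction, with outlier spots kept, and before the software's correction, where the share of all genes ran from 2.85% to 5.56%. Of the other pathway genes detected on all arrays, Cul1 and Tradd had this order too. Neither had it after normexp correction, and Tradd did not with the percentile over all probes. Nod1 had it only after normexp correction and before the software's correction. None of the other target genes detected on all arrays had it under any of these settings. Nfkb2 holds the NF-κB consensus in the stretch printed above, while the searched windows of Tnfaip2 and Icam1 do not. Other sites were not searched for in these 2 genes. Of the other genes with the printed consensus, Bcl3 was also highest on replicate 1 and lowest on replicate 3 (after normexp correction it was highest on replicate 2), Nfkbia was lowest on replicate 4, and Nfkbie was highest on replicate 2. The 3 genes whose deviations lay nearest to those of Tnfaip2 among 5823 detected genes, by root mean square difference over the 4 arrays, were Dgkq at 0.033, Rhoq at 0.055 and Zfp644 at 0.057. Icam1 was number 50 in that list with 0.13, and Nfkb2 number 156 with 0.18. The likeness, over 4 arrays, is a description.

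Of the 10 genes, 6 had their highest level on replicate 1, 3 had it on replicate 2, and Ikbkb had it on replicate 3. The shares of all detected genes that were highest on replicates 1 to 4 were 37.8%, 28%, 19.1% and 15.1%. With all 4 arrays kept, the count on replicate 1 ran from 4 after normexp correction to 7 before the software's correction, where Rela joined it. It was 8 without replicate 2 and 7 without replicate 3 or 4. Fewer arrays then share the highest places, and the matching share of all genes was not computed. The median deviation of the 10 genes on replicate 1 was 0.33 above their means, against 0.057 for all detected genes. These medians were 0.069 and −0.081 after normexp correction, and 0.23 and −0.044 with the 75th percentile over all probes as the reference. On the other end, 5 of the 10 genes were lowest on replicate 3 (Nfkb2, Nfkbie, Bcl3, Tnfaip2 and Icam1), as were 22.2% of all detected genes. After normexp correction that count was 4, with Nfkbie lowest on replicate 4. The brightest array was replicate 1, and the part of that in these counts was not tested. None of the 10 genes differed 2-fold or more between arrays, where 8.96% of all detected genes did, but Tnfaip2 lay at that limit. With quantile scaling 1 gene passed it, as did 1 without replicate 2 and 1 without replicate 4. Before the software's correction 2 passed, Tnfaip2 and Nfkb1. The genes differed least between replicates 3 and 4, with a median absolute difference of 0.19, and most between replicates 1 and 3, with 0.44. Over all detected genes the same pairs gave 0.16 and 0.27, and the pair that differed most was replicates 1 and 2, with 0.32.

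**Figure D3:**
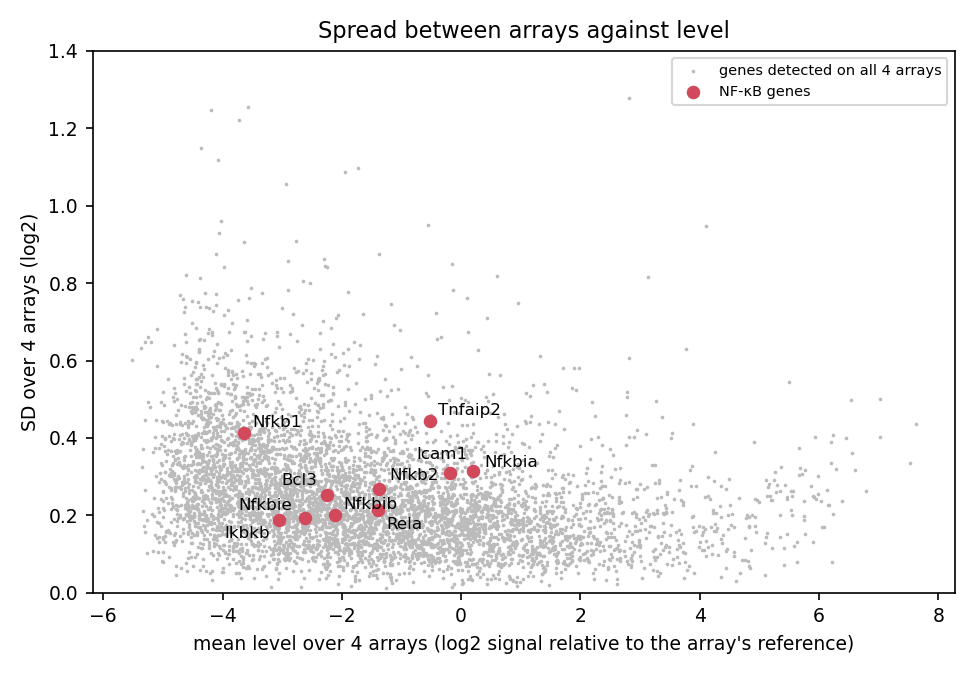
SD over the 4 arrays (log2, vertical axis) against mean level (log2 signal relative to the array's reference, horizontal axis) for 5824 genes detected on all 4 arrays (grey points) and the 10 NF-κB genes (red points). The 10 genes lie inside the cloud, with SDs from 0.19 for Ikbkb to 0.44 for Tnfaip2; the horizontal position reflects each probe's own brightness.

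Of 56 other measured genes on the pathway lists, 35 passed the background call on every array, 6 on 1 to 3 arrays, and 15 never did. A further 15 listed genes had no probe named here. The median SD of the 35 genes was 0.25.

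Beside Ikbkb, 7 kinases or kinase partners were measured, and every array detected 4 of them. Ikbkg, the regulatory subunit of the kinase complex, was at −2.15 ± 0.24 (SD, n = 4), and Map3k7, the kinase TAK1 that activates the complex, at −5.02 ± 0.40. On every array the Map3k7 signal was weaker than that of Nfkb1, and the part of this in its SD was not tested. Chuk, which encodes IKKα, was detected on replicates 1, 3 and 4. No array detected Tbk1, or Map3k14, which encodes the kinase NIK of the alternative branch. A gene without such signal may still be expressed.

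Among 11 measured genes of the ubiquitin steps, which link and remove the tags that activate or destroy pathway proteins, 9 were detected on all arrays. Cul1, the scaffold of the ligase that tags phosphorylated IκB, had the highest SD of the list, at −4.38 ± 0.65 (SD, n = 4). Its signal too was weaker than that of Nfkb1 on every array, and the part of this in the SD was not tested. Rnf31, which encodes HOIP of the linear ubiquitin ligase, was at −2.40 ± 0.41. The deubiquitinase gene Cyld was detected on replicate 1 only, and the ligase gene Itch on no array.

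Of 14 measured adaptors between receptors and kinases, 9 were detected on all arrays. Bcl10 was at −2.64 ± 0.46 (SD, n = 4) and its partner Card9 at −1.15 ± 0.33. Fadd and Birc2 were detected on replicates 1, 3 and 4, and Irak4, Traf6 and Ripk2 on no array. Irak4 and Traf6 carry signals from Toll-like receptors, and Ripk2 those from NOD receptors.

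Of 24 other measured target genes, 13 were detected on all 4 arrays. The cytokine gene Tnf was at 1.08, 0.29, 0.43 and 1.03 on replicates 1 to 4, or 0.71 ± 0.41 (SD, n = 4). It was highest on replicate 1 and lowest on replicate 2, so it did not have the full order of Tnfaip2 and Icam1. The chemokine gene Ccl2 was at 1.19, 1.91, 2.48 and 2.33, or 1.98 ± 0.58, lowest on replicate 1 and highest on replicate 3. Cxcl1 and Gadd45b were detected on replicates 1, 3 and 4. Vcam1, Sele, Il6, Ccl20, Ptgs2, Nos2, Birc3, Traf1 and Cd40 stayed undetected on each array. Of the 6 genes detected on some arrays, 5 failed only on replicate 2, the dimmest array. Fewest genes of all were detected there too: 5978 named genes, against 7549, 6534 and 6517 on replicates 1, 3 and 4. How often all partly detected genes failed only on replicate 2 was not counted, and the cause of the count of 5 was not tested.

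Only 6 of the 56 other pathway genes were printed at repeated spots and could be tested between arrays. With limma's moderated F over 871 genes, 4.25% of all genes tested passed an adjusted p of 0.05 together with a 2-fold minimum between the extreme arrays. Of the 6 pathway genes, Ccl2 was called (39 spots over 4 arrays, limma adjusted p = 2.72e-17), and without replicate 1 it was not. Without the 2-fold minimum, 84.8% of all genes tested passed, and so did 4 of these 6: Ccl2, Ier3, Il1rn and Rbx1. The kinase gene Ikbke (limma adjusted p = 0.23) and the chemokine gene Ccl3 (limma adjusted p = 0.55) did not. Spots of a probe share the RNA of 1 culture, so these p-values concern arrays and not the particles.

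**Figure D4:**
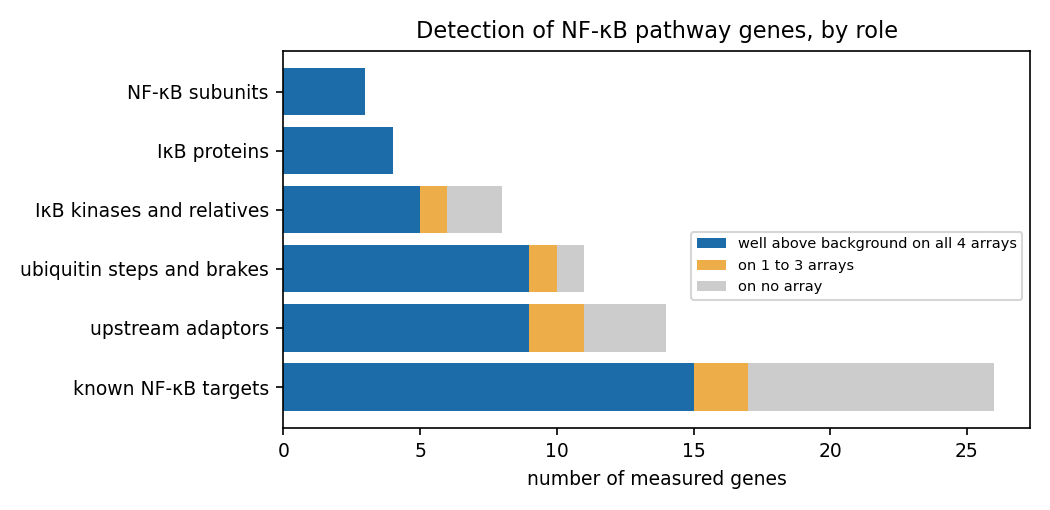
Number of measured genes (horizontal axis) on each NF-κB pathway list (vertical axis), the 10 genes included, split by how many arrays detected them: all 4, 1 to 3, or none. The 3 subunit genes and 4 IκB genes with a named probe were all detected, while 9 of the 26 target genes were detected on no array.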

How the data were processed

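RNA of 4 exposed cultures was measured on 4 arrays of 1 colour. Per the labels' protocols, 100 ng of RNA with a RIN above 7.5 was labelled with Cy3. The deposited files hold spot intensity from Agilent Feature Extraction 11.0.1.1, per the file headers, which had subtracted background and removed trends across each array before the authors deposited them, with no scaling from array to array. The files also hold the software's error, the intensity before detrending, the unsubtracted median intensity and flags.

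Control spots and spots marked as outliers were left out of the intensities, and none was saturated. Log2 values were averaged over the spots of 1 probe, and the reference subtracted from an array was the 75th percentile of those probes that passed the background call on all 4 arrays, 22.9% of all. A gene was detected when more than 50% of the spots of any of its probes were well above background, and its level was that of its detected probe with the highest mean. Probes were named by accession, without version, through a gene table of GRCr8, used for names only; 21109 of 45598 matched. Negative controls, outlier spots left out, had a 99th percentile that ran from 5.07 to 5.96 units. The number of arrays, 4, limits the precision.

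The test between arrays used limma 3.58.1 and R 4.3.3 (a moderated F with squeezeVar, Benjamini-Hochberg over 1594 probes, spots as replicates within an array). Tested on simulated data for these 1594 probes, with no fold minimum, it found 97 of 100 probes with a log2 difference of 1 and 97 of 100 with a difference of 2, and 8 of 1394 probes without one. Python 3.11.15, numpy 2.4.6 and pandas 2.3.3 did the rest, and matplotlib 3.10.9 drew the figures.

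The genes and lists were chosen with earlier results of these data known. Named were the 10 genes with all probes; of the other listed genes those detected on no array or on some, those past the test with the fold minimum, and the 2 with the highest SD in each list; and the 3 genes nearest to the member with the highest SD. Tradd, Nod1 and the genes past the test without the fold minimum were named after their values were seen, as were Ikbke, Ccl3 and the markers. Alternatives were other references, quantile scaling, normexp with an offset of 50 (on the median signal), outlier spots kept, the mean over probes, other detection rules and fold minima, no filter on dim probes, and each replicate left out. The signal before detrending was added after seeing the data.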

Additional observations from a re-analysis of the deposited data

How the results depend on the processing

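All 10 NF-κB genes were detected on all 4 arrays under each of the 3 other detection rules and with each replicate left out. For all pathway genes that count was 45, and 45 to 50 under the same alternatives. The median SD of the 10 genes ran from 0.19 to 0.31 over its 12 alternatives, against 0.26. Setting arrays against all probes or against the median of detected probes shifts the levels of all genes together, so levels hold only for the reference named. In the test between arrays 37 genes were called in all and 1 pathway gene. These counts were 739 and 4 without a fold minimum, and 371 and 2 without the filter on dim probes. With a fold minimum of 1.5 the first was 224, and after normexp correction 19. With a replicate left out they ran from 10 to 35 and from 0 to 1, the lowest in both cases without replicate 1; without replicate 2 the first was 21. The cause of these differences was not tested, beyond the fewer or more genes that such a rule admits. None of the 10 genes has repeated spots, so the planned count of these genes past the test could not be run. No paired analysis was possible because the 4 samples form 1 group. Arrays have no read depth; signal over background is weakest, among the probes used for the 10 genes, for Nfkb1 on replicate 2.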
